A study of Mus musculus with 6 samples.

Results

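The genes described here are 8 components of peripheral myelin made by Schwann cells, namely Pmp22, Prx, Cldn19, Drp2, Ncmap, Sh3tc2, Pmp2 and Mal. They were chosen by name from a table of 54532 genes, and each had 1 row in it. The table holds RNA-seq read counts from sciatic nerves taken at postnatal day 3, with 1 library from each of 3 controls and 3 Dok6 mutants. The control mice, described in the study as littermates, are labelled WT, and the mutants are labelled Dok6 KO. By the methods of the study, the mutant allele lacks exon 3 of Dok6, which was flanked by loxP sites and removed with EIIA-cre in the early embryo, so that the gene is targeted in all tissues. All strains were kept on a C57BL/6 background, sexes were not distinguished, and no treatment is given for either group. The series asks whether myelination genes are altered in the mutant nerves.

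Schwann cells wrap axons of the peripheral nerve in a membrane spiral. In compact myelin the membranes are held together by adhesion proteins and tetraspan proteins such as PMP22, and P2, the product of Pmp2, binds fatty acids on the cytoplasmic face. Non-compact myelin keeps cytoplasm and holds tight junctions, to which claudin-19 belongs, and the membrane protein NCMAP. On the outer surface, periaxin (Prx) and dystrophin-related protein 2 (Drp2) form a complex with dystroglycan, the laminin receptor. SH3TC2 acts in endosomal recycling together with RAB11, and MAL is a small proteolipid of the apical and myelin membrane traffic that oligodendrocytes also make. Changes in PMP22, PRX, SH3TC2 and PMP2 cause forms of Charcot-Marie-Tooth neuropathy in humans. At postnatal day 3, Schwann cells of the mouse sciatic nerve are sorting axons and starting to myelinate.

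The start regions of 4 members are shown because the data bear on whether members move together, and because these windows lie wholly outside the annotated gene. Windows were listed for 5 of the 8 members in the RefSeq annotation of GRCm38.p6. Each line gives the 250 bases before the most upstream listed start, read 5′ to 3′ on the strand of the gene. Capitals mark GGAATG, the core that TEAD factors bind, and GCGNGGG, a core bound by EGR factors, on either strand. The SOX core ACAAAG was also searched and no capital stands for it.
Pmp22, chr11:63128732-63128981, plus strand: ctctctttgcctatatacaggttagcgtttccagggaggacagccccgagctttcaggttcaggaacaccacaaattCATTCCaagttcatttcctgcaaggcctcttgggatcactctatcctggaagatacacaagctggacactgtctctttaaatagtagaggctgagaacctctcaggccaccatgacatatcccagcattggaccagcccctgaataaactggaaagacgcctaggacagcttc
Prx, chr7:27499074-27499323, plus strand: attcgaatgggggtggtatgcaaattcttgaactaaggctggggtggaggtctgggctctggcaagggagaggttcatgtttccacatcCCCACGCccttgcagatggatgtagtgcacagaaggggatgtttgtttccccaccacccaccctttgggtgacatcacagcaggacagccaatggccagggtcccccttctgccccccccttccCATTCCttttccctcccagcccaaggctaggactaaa
Mal, chr2:127656696-127656945, minus strand: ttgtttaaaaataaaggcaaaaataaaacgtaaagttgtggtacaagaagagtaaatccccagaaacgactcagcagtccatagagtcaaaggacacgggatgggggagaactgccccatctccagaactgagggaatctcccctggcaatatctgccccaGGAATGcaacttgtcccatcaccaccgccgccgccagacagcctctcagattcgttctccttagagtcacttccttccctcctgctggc
Ncmap, chr4:135398228-135398477, minus strand: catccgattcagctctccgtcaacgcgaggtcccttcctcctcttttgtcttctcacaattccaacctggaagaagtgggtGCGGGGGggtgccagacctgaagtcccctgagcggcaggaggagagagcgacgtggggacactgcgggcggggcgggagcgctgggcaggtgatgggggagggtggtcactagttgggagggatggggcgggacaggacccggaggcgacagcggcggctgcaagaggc

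GGAATG or its complement stood in 3 of the 10 windows listed for the members, 1 each in Pmp22, Prx and Mal, and in 12.6% of all 32851 windows of this length. Counted from the start of the gene, the match began at base -37 in Prx, at -89 in Mal and at -173 in Pmp22. GCGNGGG stood in 4 of the 10 windows, against 20.3% of all windows, and only Prx held both cores in 1 window. ACAAAG stood in no window of a member and in 16.5% of all windows. Pmp22 has 4 listed starts, of which the last 2 share bases, and the 2 windows of Cldn19 overlap almost fully. These matches describe the letters of the windows, and no binding was measured.

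The 6 libraries held between 17699904 and 18678170 counts, and 3 counts, taken as the smallest detectable level, corresponded to between 0.156 and 0.172 CPM, the count relative to the scaled library size. This floor covers counting error only. Dok6 was at 15.8 ± 3.32 CPM (SD, n = 3) in control and 6.73 ± 0.825 CPM (SD, n = 3) in mutant libraries, and the 2 groups did not overlap (log2 fold change -1.23, SE 0.20, adjusted p = 0.0118). These counts are over the whole gene and include exons outside the deleted one. The tissue label was checked against marker lists. The sum of the 12 Schwann lineage genes in controls was 152 to 244 CPM. In contrast, 12 markers of central neurons, whose cell bodies a sciatic nerve does not hold, summed to between 1581 and 1944 CPM in control and between 1353 and 1496 CPM in mutant libraries. They include Slc6a5, Slc32a1 and Gad1, genes of glycine and GABA neurons. Astrocyte markers summed to between 1719 and 3282 CPM over all 6 libraries. The markers thus go against the label, and the libraries are called by their labels only. In such bulk samples, fewer cells of a type and less RNA per cell cannot be told apart.

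Dok6 mutant mouse 2 stood apart for most of the members, but not for them alone. Among the 17099 genes tested, 25 were more than 5 times higher in mutant mouse 2 than in the next mutant mouse, which is 0.146% of the genes. The same count was 13 for mutant mouse 1 and 3 for mutant mouse 3. These 25 included Spp1, Prg4, Ibsp, Comp and Gapdh, which are neither members nor on the other gene lists used here. Of the 25, 5 were members, namely Cldn19, Prx, Ncmap, Pmp22 and Mal. For that reason the difference of each member tested is given with all 6 mice and again without mutant mouse 2.

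Pmp22, the tetraspan protein of compact myelin, had the highest level of the 8 genes per kb of gene length, although Drp2 was higher in CPM in every control. It was at 24.7, 17.5 and 14.6 CPM in controls 1, 2 and 3 against 89.3, 783 and 76.2 CPM in mutant mice 1, 2 and 3. The lowest mutant mouse was 3.08 times above the highest control mouse, and mutant mouse 2 was 8.77 times above the next mutant. Pmp22 rose by a log2 fold change of 4.06 (SE 0.89, adjusted p = 0.0244, edgeR's quasi-likelihood test). It still rose when mutant mouse 2 was left out, by 2.13 on the log2 scale (SE 0.20, adjusted p = 0.00645). The gene lies on chromosome 11 of GRCm38 from 63128982 to 63159547, and no other annotated gene overlaps its exons.

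Prx encodes periaxin, the scaffold that links the Schwann cell membrane to the dystroglycan complex. Its levels were 10.3, 5.45 and 3.83 CPM in the control mice and 28.2, 330 and 18.7 CPM in the mutant mice. The genotypes did not overlap, with a gap of 1.82 times between the highest control and the lowest mutant. The log2 fold change was 4.27 (SE 1.095, adjusted p = 0.0365), and 1.85 (SE 0.37, adjusted p = 0.0395) without mutant mouse 2. Prx is on chromosome 7 from 27499324 to 27520214, and Gm15541 on the other strand overlaps its exons. Whether the counting used strand is not given in the sources used here, so reads of Gm15541 cannot be told apart from those of Prx.

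Cldn19, the claudin of Schwann cell tight junctions, was scarce in the control mice, at 2.47, 1.26 and 1.20 CPM, or 43, 22 and 21 counts. In the mutant mice it was at 6.54, 101 and 4.77 CPM. All mutants were above all controls, and mutant mouse 2 was 15.4 times above the next mutant. Cldn19 rose by 4.50 on the log2 scale (SE 1.21, adjusted p = 0.0416), and by 1.78 (SE 0.36, adjusted p = 0.0408) without mutant mouse 2. It lies on chromosome 4 from 119255414 to 119262438 and shares exonic bases with Gm12927 on the other strand, which leaves the same limit as for Prx.

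Sh3tc2, whose product works in endosomal recycling, was the member with the smallest adjusted p. It was at 1.26, 1.15 and 0.686 CPM in control mice, from 12 to 22 counts. In mutant mice 1, 2 and 3 it was at 4.15, 17.7 and 3.87 CPM. The lowest mutant was 3.06 times above the highest control. The log2 fold change was 3.05 (SE 0.65, adjusted p = 0.0225), and 1.95 (SE 0.33, adjusted p = 0.0292) without mutant mouse 2. The gene is on chromosome 18 from 61953075 to 62024402.

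Mal was at 10.7, 8.94 and 7.32 CPM in controls against 16.3, 135 and 17.6 CPM in the mutant mice. Here too every mutant mouse was above every control mouse, although mutant mice 1 and 3 were less far above them than for Pmp22. The log2 fold change of 2.65 (SE 0.78, adjusted p = 0.0542) did not pass the threshold of 0.05. When mutant mouse 2 was left out, the log2 fold change was smaller, 0.92, with a smaller standard error of 0.19, and passed (adjusted p = 0.0437). Mal lies on chromosome 2 from 127633226 to 127656695.

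Ncmap, the gene of a membrane protein of non-compact myelin, differed from these 5. It was at 1.55, 1.95 and 2.06 CPM in controls against 2.70, 26.7 and 0.954 CPM in the mutant mice. Mutant mouse 3 was below every control mouse, and the genotypes overlapped. Its log2 fold change of 2.44 (SE 1.03, adjusted p = 0.134) came to -0.019 (SE 0.45, adjusted p = 0.986) without mutant mouse 2. Ncmap lies on chromosome 4 from 135369576 to 135398227.

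Drp2, the partner of periaxin, varied least. It was at 59.1, 57.4 and 47.0 CPM in controls against 65.4, 70.4 and 71.6 CPM in the mutant mice. The groups did not overlap, but the gap between them was 1.11 times. The log2 fold change was 0.34 (SE 0.11, adjusted p = 0.061), and 0.33 (SE 0.12, adjusted p = 0.146) without mutant mouse 2. Drp2 is on chromosome X from 134404551 to 134456573, and it is also known from brain.

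Pmp2, the gene of the P2 fatty acid-binding protein, was at the limit of detection. It had 3, 2 and 0 counts in the control libraries and 2, 47 and 0 counts in mutant mice 1, 2 and 3. A count of 0 allows up to 0.172 CPM in control mouse 3 and 0.159 CPM in mutant mouse 3. The gene did not pass the filter on low counts and was not tested. Only in mutant mouse 2, at 2.56 CPM, was it above 3 counts. Gm37389 shares its strand and exonic bases and has a near-identical transcript, so its count is uncertain. Pmp2 is on chromosome 3 from 10179851 to 10183929.

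**Figure D1:**
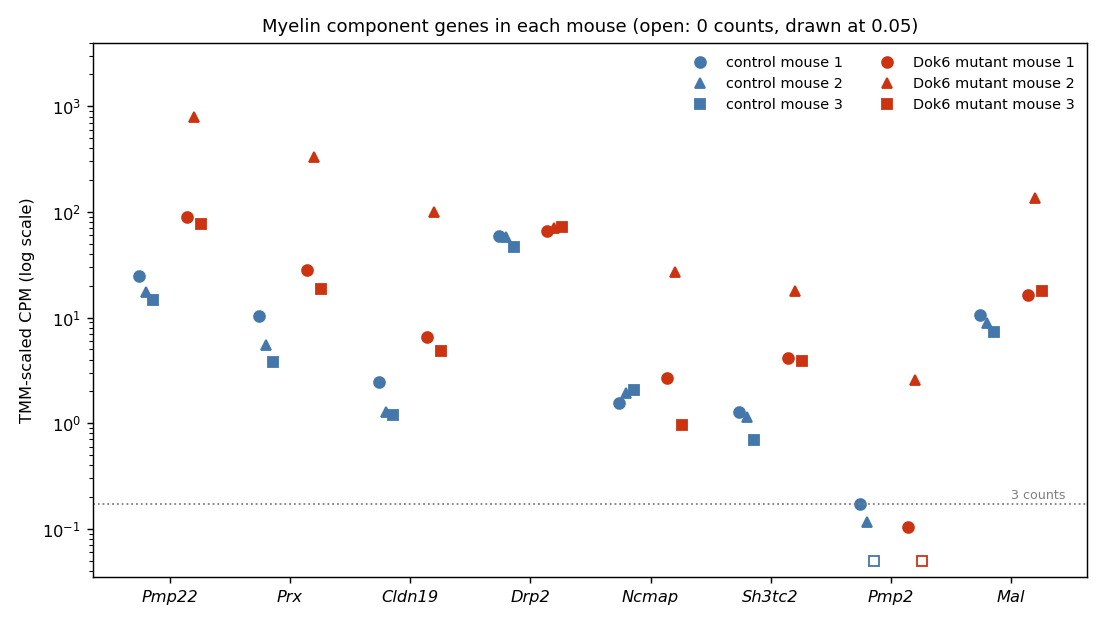
TMM-scaled CPM of the 8 genes on a log axis, 1 point per mouse, with controls in blue and Dok6 mutants in red. The triangle of mutant mouse 2 is the highest point for every gene but Drp2, and the 2 open squares are libraries with 0 counts of Pmp2.

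Of the 7 members tested, 4 were higher at an adjusted p under 0.05, namely Pmp22, Prx, Cldn19 and Sh3tc2, and none was lower. Among all genes tested, 8.62% were higher and 6.01% were lower by the same rule. The same 4 genes also passed the study's threshold of 2 on the log2 fold change, which 1.08% of all genes tested passed with an increase. Limma voom called 0 of the 7, with log2 fold changes of 3.23 for Pmp22, 3.21 for Prx, 3.19 for Cldn19 and 2.67 for Sh3tc2 and adjusted p from 0.0595 to 0.244 for these 4, where it called 7.86% of all genes higher. DESeq2, which called 10.3% of genes higher, called Sh3tc2 and Mal and withheld its adjusted p for Pmp22, Prx and Cldn19. At an unadjusted p under 0.05 in edgeR's test, 7 members were higher and 0 lower, where 18% of all genes tested were higher and 15.5% lower. In 6 of the 7 every mutant mouse was above every control mouse, as for 19.6% of all genes tested. The median log2 fold change of the 7 was 3.05, against 0.01 for all genes tested.

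Without mutant mouse 2, 5 members were higher, the 4 named above and Mal, where 3.16% of all genes were higher. Of these, 1, Pmp22, was past a log2 fold change of 2. The members' calls rested on the 3 control mice together. Leaving out control mouse 1, 2 or 3 left 0 members called in edgeR's test, with 6 members higher at an unadjusted p under 0.05 each time. The shares of all genes called higher were then 5.56%, 0.318% and 5.72%, and at the unadjusted p 16.6%, 13.1% and 17.6%. The log2 fold changes then lay from 3.91 to 4.30 for Pmp22, from 4.002 to 4.76 for Prx, from 4.32 to 4.91 for Cldn19 and from 2.83 to 3.22 for Sh3tc2.

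**Figure D2:**
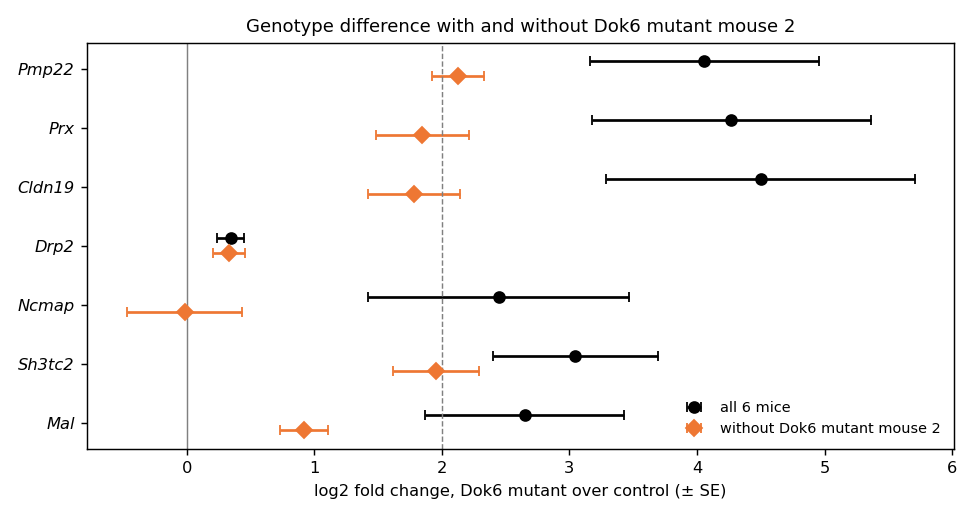
Log2 fold change of Dok6 mutant over control mice with its standard error for the 7 members tested, with all 6 mice (black) and without mutant mouse 2 (orange). The dashed line marks the threshold of 2, and Pmp22 is the only gene to the right of it without mutant mouse 2, where Ncmap is at -0.019.

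The spread among the mutant mice was wide for all members but Drp2. The ratio of the highest to the lowest mutant was 28.0 for Ncmap, 21.1 for Cldn19, 17.7 for Prx, 10.3 for Pmp22, 8.30 for Mal and 4.58 for Sh3tc2. Drp2 had a ratio of 1.096, which 83.4% of the genes tested reached or exceeded. The ratio of Sh3tc2 was reached by 1.86% and that of Cldn19 by 0.129% of them. The median over the 7 members was 10.3, against 1.25 over all genes tested, and it came to 1.17 without mutant mouse 2. The coefficient of variation among mutants was between 92.3% and 147% for the 6 variable genes and 4.81% for Drp2. Among the control mice, it was between 12.01% for Drp2 and 51.4% for Prx. Ranked by the ratio of mutant mouse 2 to the next mutant, Cldn19 was the second, Prx the third, Ncmap the sixth, Pmp22 the seventh and Mal the eleventh of all genes tested.

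To compare genes with each other, levels were divided by the gene length of the deposited table. On this scale of CPM per kb, Pmp22 was the highest member in all 6 libraries, from 6.22 to 10.5 in control and from 32.4 to 333 in mutant mice. Drp2 was second in 5 libraries, from 5.50 to 6.91 in the control mice, a range that overlaps that of Pmp22. In mutant mouse 2 it was sixth, at 8.23. Mal was the third in all 6 libraries, from 2.63 to 3.84 in the control mice. Prx, from 0.687 to 1.84, and Ncmap, from 0.696 to 0.924, did not differ beyond their spread in the control mice. Below them followed Cldn19 (0.282 to 0.579) and Sh3tc2 (0.151 to 0.278), whose ranges did not overlap, and then Pmp2.

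Within a library, some members kept their ratio to Pmp22 and others did not. The level of Pmp22 itself ranged 53.5-fold over the 6 mice. The ratio of Prx to Pmp22, per kb, lay between 0.110 and 0.175 in control and between 0.103 and 0.178 in mutant mice, so the genotypes overlapped and the whole range was 1.72-fold. Cldn19 likewise kept to between 0.0346 and 0.0709 of Pmp22. The ratio of Mal to Pmp22 was between 0.366 and 0.432 in the control and between 0.146 and 0.196 in the mutant mice, without overlap. The ratio of Drp2 to Pmp22 was between 0.658 and 0.9003 in controls, whereas mutants 1, 2 and 3 had 0.201, 0.0247 and 0.259. The p-values given for single genes test the genotype difference against the spread between these mice, and none is given for the ratios. Since an exact two-sided permutation test on 6 mice in equal groups reaches 0.1 at the lowest, none was run on the ratios, which are descriptions.

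**Figure D3:**
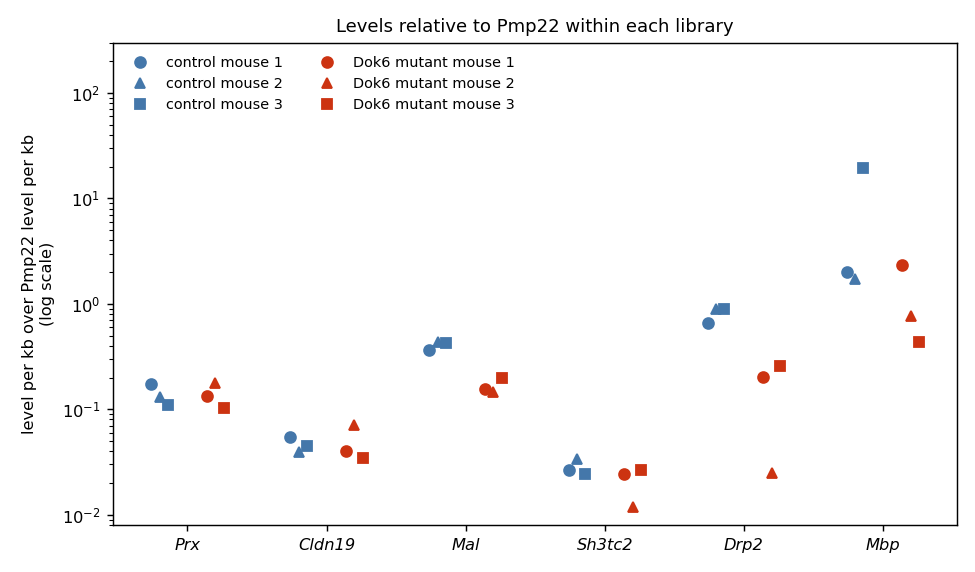
Level per kb of each gene divided by that of Pmp22 in the same library, on a log axis, 1 point per mouse, with controls in blue and Dok6 mutants in red. Prx and Cldn19 stay in a narrow band, whereas Mal and Drp2 are lower in every mutant than in every control, and Mbp of control mouse 3 lies far above the rest.

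The other genes of peripheral myelin were read from 5 lists with 51 genes in all, of which 50 were tested. Of these, 14 were higher and 0 lower at an adjusted p under 0.05, and at an unadjusted p under 0.05, 22 were higher and 2 lower, against the 18% and 15.5% of all genes given above. Without mutant mouse 2 the count of higher genes was 8, and without control mouse 2 it was 0, where 18 were higher at an unadjusted p, as were 13.1% of all genes. In the list of other compact myelin genes, Cd81, a tetraspanin, had the lowest log2 fold change, -0.02 (adjusted p = 0.902).

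Mbp, Mag and Cnp, which Schwann cells and oligodendrocytes both express, did not pass. Mbp was at 175, 108 and 1013 CPM in controls against 750, 2129 and 119 CPM in the mutant mice, with the genotypes overlapping. Control mouse 3 was the highest control for Mbp and the lowest for Pmp22, Prx, Cldn19, Sh3tc2, Mal and Drp2. Mobp, a gene of central myelin, was at 4.76, 4.76 and 93.4 CPM in controls against 57.6, 155 and 1.91 CPM in the mutant mice. Mbp and Mobp thus had the same 3 mice on top, control mouse 3 and mutant mice 1 and 2. Of the 12 oligodendrocyte markers, 11 were tested and 0 passed in edgeR's test in either direction, and Opalin was at 0 in 5 libraries. Their sums were 396, 333 and 652 CPM in the control and 732, 876 and 379 CPM in the mutant mice, so the genotypes overlapped.

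In non-compact myelin and its adhesion genes, 1 of 12 passed, Cdh1 (E-cadherin, of the junctions within the Schwann cell), with a log2 fold change of 2.82 (SE 0.35, adjusted p = 0.00716). Cadm4 had the lowest value of this list, -0.25 (adjusted p = 0.118). In the list around DRP2, dystroglycan and laminin receptors, 2 of 10 passed. These were Itga6, an integrin subunit that binds laminin (1.19, adjusted p = 0.0423, and 0.65, adjusted p = 0.0484, without mutant mouse 2), and Sgce, a sarcoglycan (0.61, adjusted p = 0.0144). Dag1, the gene of dystroglycan itself, had a log2 fold change of 0.17 (adjusted p = 0.436), Lama2 had the highest of the list at 2.06 (adjusted p = 0.0844) and Ezr the lowest at -0.23 (adjusted p = 0.376).

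Of 9 endosome and phosphoinositide genes whose loss gives demyelinating neuropathy or that work beside SH3TC2, 2 passed. Ndrg1 rose by 1.22 on the log2 scale (adjusted p = 0.0222) and Sbf1 by 0.27 (adjusted p = 0.0414), but Sbf1 did not pass without mutant mouse 2 (adjusted p = 0.124). Rab11a, the recycling GTPase, had a log2 fold change of -0.08 (adjusted p = 0.543), and Fig4 had the lowest value, -0.29 (adjusted p = 0.0510). Of 12 genes of the Schwann lineage and its signals, 8 passed, all higher. The highest was Dhh, the hedgehog ligand of Schwann cells, at 3.89 (SE 0.68, adjusted p = 0.0143). Foxd3 was the lowest at 0.20 (adjusted p = 0.728), and Sox10, the lineage factor that oligodendrocytes share, was at 0.42 (adjusted p = 0.504). Without mutant mouse 2, 3 of the 12 passed. The sum of the 12 was 224, 152 and 244 CPM in controls and 293, 606 and 381 CPM in mutant mice, without overlap. The level of Pmp22 per kb over that of Sox10 was between 0.176 and 0.539 in the control mice and between 1.27 and 7.05 in the mutant mice. No ratio was taken to Dhh or Erbb3, whose log2 fold changes were larger than that of Sox10 (3.30 for Erbb3). Erbb3 was at 3.56, 2.35 and 1.89 CPM in controls against 9.39, 49.9 and 18.0 CPM in the mutant mice. The ratio to Sox10 alone thus does not show how Pmp22 stood against the rest of this list.

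Markers of some other cell types also differed between the genotypes. Of the 12 skeletal muscle markers, 11 were tested and 10 were higher, and their sum was between 19.9 and 33.1 CPM in the control and 712, 375 and 137 CPM in mutant mice 1, 2 and 3. Tnnc2 was at 0 in all 6 libraries. Mutant mouse 1 was therefore the highest for muscle, whereas mutant mouse 2 was the highest for the members. Of 12 sensory neuron markers, 9 were higher, with sums between 347 and 446 CPM in the control and 586, 1184 and 1203 CPM in the mutant mice. Mrgprd, a nociceptor receptor of that list, was at 0 in control mouse 1. Of 10 fibroblast and perineurium markers, 4 were higher. Their sums were 1287, 625 and 354 CPM in control mice 1, 2 and 3 and 2430, 3283 and 2189 CPM in mutant mice 1, 2 and 3. Within each genotype the mice stood in the same order for the members' sum. That sum was 110, 93.8 and 76.7 CPM in the control and 213, 1467 and 194 CPM in the mutant mice. Endothelial markers were higher for 4 of 8 and microglia and macrophage markers for 1 of 8, with sums of 183 to 295 CPM against 319 to 443 CPM and of 75.2 to 111 CPM against 115 to 153 CPM. When mutant mouse 2 was left out, 8 muscle, 8 sensory neuron, 2 fibroblast and 3 endothelial markers were higher, and when control mouse 2 was left out these counts were 2, 4, 0 and 0. Of 12 central neuron markers, 0 were higher and 2 lower, and their sums, given above, did not overlap. Of 9 astrocyte markers, 0 passed in either direction, and their sums overlapped between the genotypes. The part of these cell types in the members' differences was not tested.

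**Figure D4:**
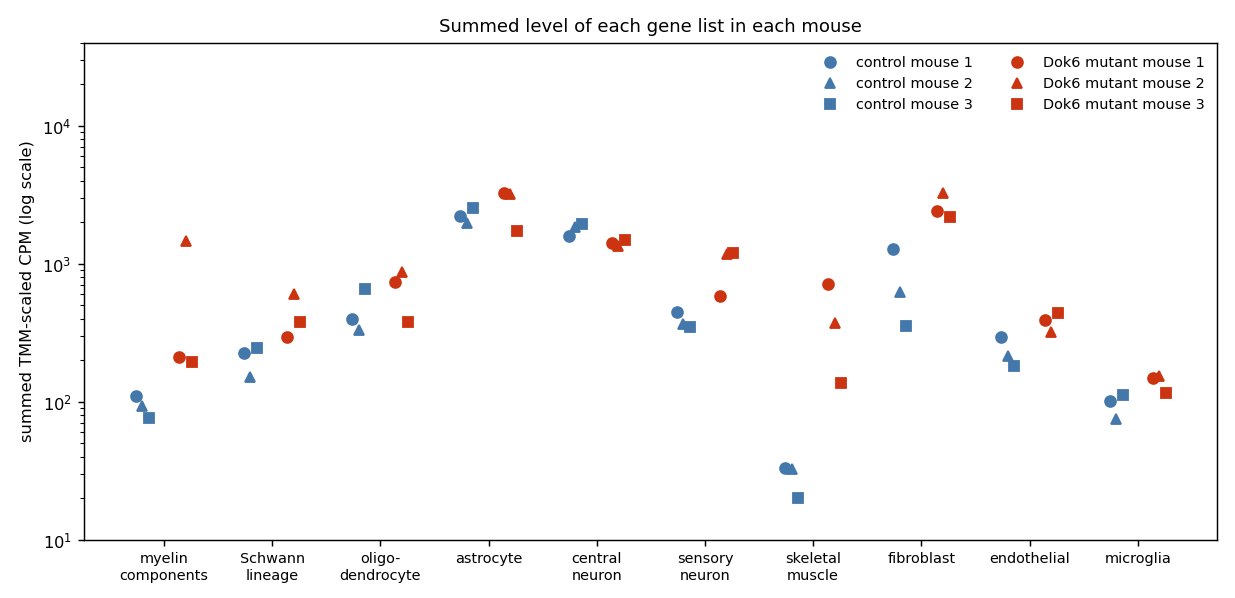
Summed TMM-scaled CPM of the 8 members and of 9 gene lists on a log axis, 1 point per mouse, with controls in blue and Dok6 mutants in red. The sums of central neuron markers are lower in every mutant than in every control. Those of Schwann lineage, skeletal muscle, sensory neuron, fibroblast, endothelial and microglia markers are higher in every mutant than in every control. So is the sum of the members, which is highest in mutant mouse 2 at 1467 CPM.

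The members followed each other across the 6 libraries to different degrees. The correlation of log2 CPM of a member with the mean profile of the other members tested was 0.98 or more for Pmp22, Prx, Cldn19, Sh3tc2 and Mal, 0.77 for Ncmap and 0.70 for Drp2. These values describe 6 libraries in 2 groups, with mutant mouse 2 among them, and were not computed without it. Among 15669 other genes with a mean of at least 1 CPM, 336 had a correlation of 0.9 or more with the mean profile of the members. Among the 10 most alike were Trim68, Itga6, Sdcbp, Deptor, Rhoa, Egr2, Npepl1, Slc36a2 and Rb1, with values from 0.996 for Trim68 to 0.986 for Rb1. With the 5 libraries that remain without mutant mouse 2, their correlations were between 0.909 for Egr2 and 0.991 for Sdcbp. Genes alike by this measure differed in the size of their range. Trim68 was between 4.92 and 5.16 CPM in control and between 5.56 and 6.82 CPM in mutant mice, whereas Egr2, a zinc finger factor that myelinating Schwann cells need, was at 1.20, 0.975 and 0.400 CPM in control and at 2.02, 18.9 and 2.70 CPM in mutant mice.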

How the data were processed

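RNA-seq libraries of sciatic nerves from 3 control and 3 Dok6 mutant mice, 1 per mouse, were analysed. The authors deposited raw counts, the whole number of reads per gene, with a gene length. Per the labels the genome build was mm10, whereas the aligner, the counting tool and the use of strand are not given in the sources used here. The methods name a directional kit and the labels do not call it directional. The columns carry genotype and mouse number and were matched to the labels by both. The controls are described as littermates, but which mice shared a litter is not given in the sources used here. The libraries held between 17699904 and 18678170 counts.

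Genes were kept with filterByExpr of edgeR 4.0.16 in R 4.3.3 (17099 of 54532), scaled by TMM and tested in 1 quasi-likelihood fit of all 6 libraries, with Benjamini-Hochberg adjustment over all genes tested. The SE was derived from the F statistic. CPM are TMM-scaled, and log2 CPM used a prior count of 2. Alternatives were DESeq2 1.42.0, voom of limma 3.58.1, other scalings and filters, a replicate block and each mouse left out. The study used DESeq2. The procedures were tested on simulated counts. Positions are from GENCODE M21 on GRCm38, and BLAST 2.17.0 was used to look for transcripts alike at 95% of bases over 200 or more. The members and lists were chosen with earlier results of these data known. Genes named are the members, the highest and lowest of each myelin list, summed marker lists, Dok6 and the 10 genes most alike in pattern. A few genes that this rule names are not reported here. Others (Mbp, Mag, Cnp, Mobp, Sox10, Dag1 and Rab11a among them, and the genes that passed) were picked after their values were seen. No library pair agreed within sampling noise (chi-square per degree of freedom from 9.47 to 58.3).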

Additional observations from a re-analysis of the deposited data

How the results depend on the processing

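No member was lower under any alternative with all 6 mice, and the 2 other scalings and the filter of at least 10 counts in every sample left the count of higher members at 4. Limma voom called 0 higher members (3 at an unadjusted p under 0.05) and 8 genes of the 5 other myelin lists. DESeq2 called 2 members, both also past a log2 fold change of 2, and gave an adjusted p for 4 only, since its Cook's distance filter withheld those of Pmp22, Prx and Cldn19. With that filter off, chosen after seeing the data, it called 5. Without a filter on low counts, edgeR called 6. Shares of all genes called were counted only for the main fit, voom, DESeq2 and the fits without mutant mouse 2 or a control mouse. The counts of 5 and 6 thus cannot be set against such a share. Leaving out each mouse in turn gave between 0 and 6 higher members, whether or not a log2 fold change over 2 was asked for, and between 0 and 18 genes of the other lists. The median ratio of the highest to the lowest mutant was then between 1.17 and 10.3, the lowest value being without mutant mouse 2. For Ncmap the log2 fold change was between -0.019 (without mutant mouse 2, with no direction at an SE of 0.45) and 2.98 (without mutant mouse 3, adjusted p = 0.0381).

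Mice carry the numbers 1 to 3 within each genotype. Same-numbered mice did not deviate together (correlations across genes of -0.00781, -0.168 and -0.243), so the number is not read as a pairing. A replicate block left 1 member called, Sh3tc2 (log2 fold change 2.76, adjusted p = 0.0396), also past the threshold of 2, and 6 genes of the other lists. The share of all genes called with this block was not counted, so these counts cannot be set against it. The log2 fold changes of Pmp22, Prx and Cldn19 were then 3.17, 3.16 and 3.27 (adjusted p = 0.0607, 0.0830 and 0.0957).

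Pmp2 had 0 to 3 counts in 5 libraries and was tested only without a filter on low counts, where it did not pass (adjusted p = 0.0951).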

Other observations

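Other genes shared the high level of Dok6 mutant mouse 2 with the members. They were named after their values were seen, among the 25 genes more than 5 times above the next mutant mouse. Gjc3, a connexin gene of myelinating glia, was at 23.8, 151 and 14.8 CPM in mutant mice 1, 2 and 3, and at 9.64, 7.62 and 13.2 CPM in the control mice. Gldn, the gene of gliomedin at nodes of Ranvier, was at 2.39, 19.8 and 1.75 CPM in the mutants, and the genotypes overlapped. The 25 also held genes on none of the lists used here, such as Spp1 and Gapdh. Spp1 was at 2.85, 50.1 and 4.98 CPM in mutant mice 1, 2 and 3, and at 22.6, 3.15 and 3.49 CPM in the control mice. Gapdh was at 5.24, 35.8 and 4.77 CPM in the mutants and at 5.51, 5.39 and 6.35 CPM in the controls.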
